A study of Mus musculus with 9 samples.

Results

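Axon guidance genes encode the ligands and receptors by which growing nerve fibres and vessels are attracted or repelled, and 70 of the 52636 rows of the count table belonged to this set. They were taken by gene symbol: the semaphorins, plexins, netrins, Slits, Robo, Unc5 and Flrt genes, ephrins and Eph receptors, with Slitrk and Ephx genes left out. RNA was sequenced from 9 samples of mouse liver endothelial cells, 5 labelled as double knockouts of Erg and Fli1 (KO) and 4 Controls labelled wild type, all taken 7 days after tamoxifen. Erg and Fli1 encode ETS-family transcription factors of endothelial cells. Tamoxifen was given to delete the genes, and the labels state it for both groups. The sources used here do not give the driver of the deletion, the strain and age of the animals or their number. Per the labels, the live cells were sorted as negative for the leukocyte marker CD45 and positive for CD31 and for VE-cadherin, the second stained by an antibody given to the living mouse. The title of the series names the fate of adult endothelial cells under these factors as its subject, and the comparison asks which guidance genes differ between the groups.

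The semaphorins are secreted or membrane-bound ligands read by plexins, with neuropilins as co-receptors of the secreted class 3 members. Netrins act through Dcc and Unc5 receptors, Slits through Robo receptors, and Flrt proteins bind Unc5 receptors and latrophilins on neighbouring cells. Ephrins are bound to the membrane, so that Eph receptors read them where cells touch. In vessels, plexin D1, Robo4, Unc5b and the pair of ephrin-B2 and EphB4 are known for sprouting, barrier keeping and the separation of arteries from veins.

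The libraries held 26791371 to 36401682 counts labelled KO and 31613059 to 34663989 counts in Control, so that 1 count was worth 0.0260 to 0.0368 CPM (counts scaled to equal library size). The targeted genes were read first. Erg averaged 142.9 ± 10.9 CPM in the libraries labelled KO and 311.6 ± 17.8 CPM in Control (SD, n = 5 and 4), with no overlap. Fli1 averaged 147.4 ± 22.5 CPM in the libraries labelled KO and 100.1 ± 8.01 CPM in Control, so its transcript went against the label (log2 fold change 0.56 ± 0.12 SE, adjusted p = 0.00636 by edgeR's quasi-likelihood test). A count over a whole gene does not show which exons the reads cover, and the groups are therefore called by their labels throughout. The endothelial genes Cdh5 and Pecam1, which encode the sorted proteins, did not pass the threshold. Of 7 endothelial markers, Tie1 and Tek were lower with no overlap (log2 fold change -1.02 and -0.60) and 5 did not pass, and their sum was 8649 to 11097 CPM in libraries labelled KO and 10951 to 12109 CPM in Control. The sum of 6 sinusoidal markers was 7625 to 13462 CPM in libraries labelled KO and 22026 to 23007 CPM in Control, with 4 of the 6 lower. In bulk RNA, fewer cells of a type and less RNA per cell cannot be told apart, and this holds for every level given here. Replicates 2 and 3 of the libraries labelled KO stood apart from the other 3, and they also differed from each other. The chi-square per degree of freedom, which is larger for libraries less alike, was 98.4 between replicates 2 and 3. It was 120.4 to 181.6 between either of them and the other 3, and 28.8 to 50.4 among the other 3. Results that rest on replicates 2 and 3 are given with and without them.

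Of the 70 guidance genes, 44 had enough counts to be tested and 26 did not. Among those tested, 16 (36.4%) passed an adjusted p of 0.05 in edgeR's quasi-likelihood test, against 29.3% of all 14583 genes tested. Lower in the libraries labelled KO were 11 guidance genes (25%, against 14.8% of all genes): Efna1, Flrt1, Flrt3, Ntn4, Plxna2, Plxnd1, Robo4, Sema3d, Sema3f, Sema4a and Sema6b. Higher were 5 (11.4%, against 14.5% of all genes): Epha1, Ntn5, Plxna1, Plxnb1 and Sema4b. No test of these shares against each other was made. The median log2 fold change was -0.17 over the 44 guidance genes and 0.01 over all genes tested. For 14 of the 44, all of them among the 16, every library of 1 group lay above every library of the other, against 27% of all genes. Epha1 and Ntn5 passed the count filter through the libraries labelled KO alone and Flrt3 through Control alone, so these 3 had to differ in order to be tested.

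**Figure D1:**
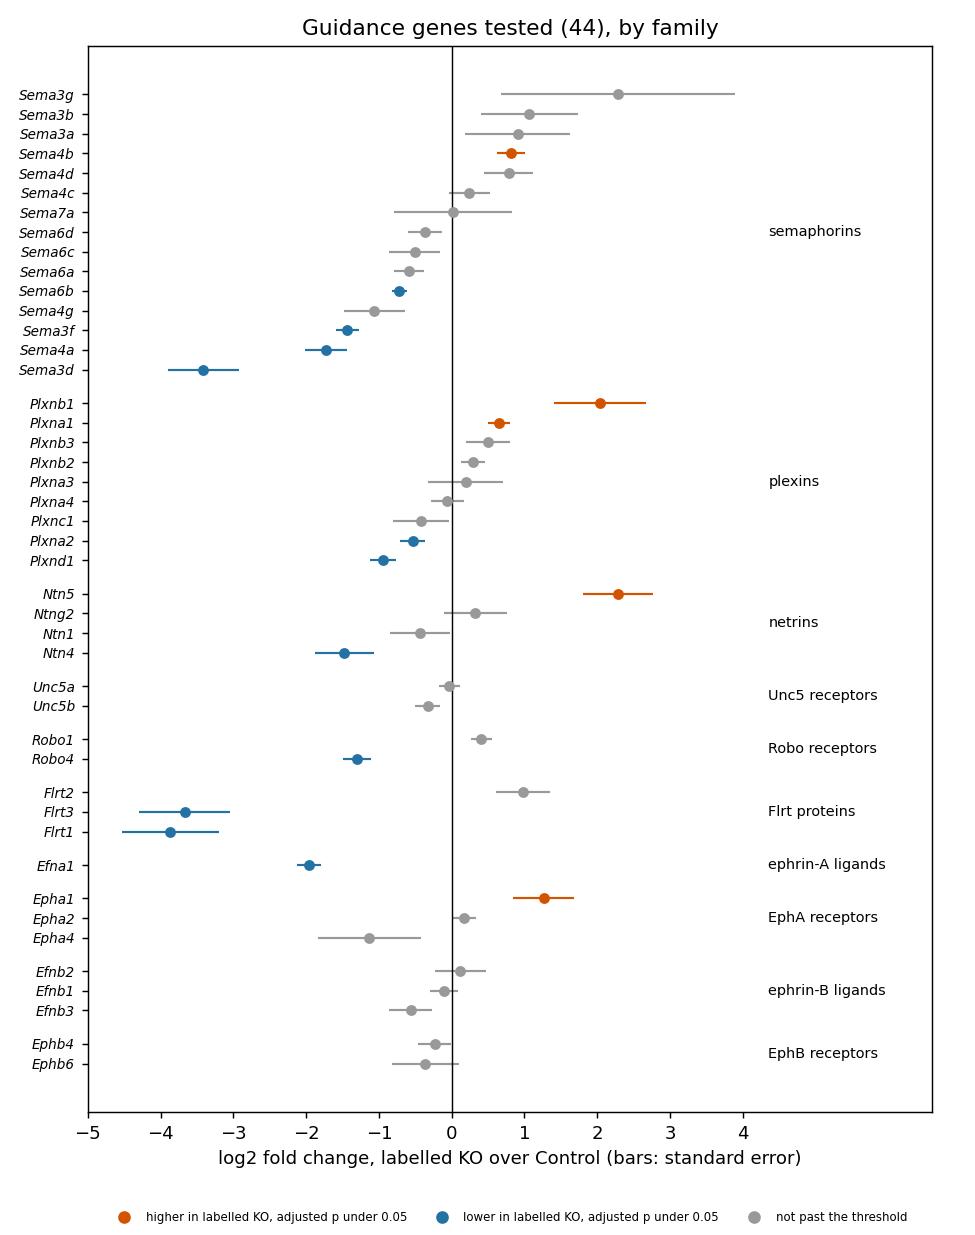
Log2 fold change of each of the 44 guidance genes tested, libraries labelled KO (n = 5) over Control (n = 4), with bars of 1 standard error, grouped by family. Orange marks the 5 genes that were higher, blue the 11 that were lower and grey the 28 that did not pass an adjusted p of 0.05; the largest falls are those of Flrt1, Flrt3 and Sema3d.

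Promoter windows of the set are shown because Erg and Fli1 belong to the ETS family, whose members bind a GGAA core. RefSeq windows of GRCm38.p6, 250 bases before to 50 after a start, were matched by symbol for 60 of the 70 genes and gave 76 windows. The longer forms CCGGAA and AGGAAG were searched on both strands, and 1 GGAA core cannot belong to both. Either form stood in 9 of 14 windows (64.3%) of the genes lower in the libraries labelled KO and in 4 of 5 windows (80.0%) of those higher. It stood in 11 of 29 windows (37.9%) of the genes tested but not past the threshold, in 10 of 28 (35.7%) of those not tested, and in 45.2% of all 32851 windows in the table. These windows came from 9 of the 11 genes lower and 4 of the 5 higher, and some genes gave several. The median share of G and C bases was 60.67% in windows of genes lower, 65.33% in those higher and 52.67% in all windows. For genes tested but not past the threshold it was 62.67%. Windows of 1 gene can overlap, a match is a description of letters, and binding was not measured. The 250 bases before the RefSeq start of a window are printed for 4 genes that fell and 1 that rose. They run 5′ to 3′ on the strand of the gene, with matches in capitals. This start can differ from the gene start in the annotation used for the other coordinates here. Counted along the gene from that annotated start, it lay at 75 for Robo4, 191 for Efna1 and 29 for Sema4b. It lay at -219 for Sema3d and 0 for Plxnd1, and positive values lie inside the gene. They lie at chr9:37401722-37401971 (+) for Robo4, chr6:115995006-115995255 (−) for Plxnd1, chr5:12382916-12383165 (+) for Sema3d, chr3:89280952-89281201 (−) for Efna1 and chr7:80186620-80186869 (+) for Sema4b.
Robo4: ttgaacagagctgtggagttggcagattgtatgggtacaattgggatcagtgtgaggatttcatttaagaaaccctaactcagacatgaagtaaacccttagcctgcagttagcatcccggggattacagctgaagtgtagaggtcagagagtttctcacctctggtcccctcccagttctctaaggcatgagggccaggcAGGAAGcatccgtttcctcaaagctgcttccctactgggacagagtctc
Plxnd1: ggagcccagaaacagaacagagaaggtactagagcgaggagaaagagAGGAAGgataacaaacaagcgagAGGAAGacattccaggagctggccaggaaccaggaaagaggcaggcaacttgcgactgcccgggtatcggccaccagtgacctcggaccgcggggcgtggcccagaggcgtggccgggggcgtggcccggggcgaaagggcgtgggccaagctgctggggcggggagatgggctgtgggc
Sema3d: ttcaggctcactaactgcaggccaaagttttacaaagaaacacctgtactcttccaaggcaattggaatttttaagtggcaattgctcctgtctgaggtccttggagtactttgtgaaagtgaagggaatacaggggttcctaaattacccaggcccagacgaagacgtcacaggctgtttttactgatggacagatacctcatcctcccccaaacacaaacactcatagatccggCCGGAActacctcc
Efna1: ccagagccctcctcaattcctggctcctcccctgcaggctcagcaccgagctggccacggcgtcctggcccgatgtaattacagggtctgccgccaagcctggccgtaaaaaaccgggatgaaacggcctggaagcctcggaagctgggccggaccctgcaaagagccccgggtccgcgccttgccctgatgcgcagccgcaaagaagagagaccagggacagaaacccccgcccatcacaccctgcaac
Sema4b: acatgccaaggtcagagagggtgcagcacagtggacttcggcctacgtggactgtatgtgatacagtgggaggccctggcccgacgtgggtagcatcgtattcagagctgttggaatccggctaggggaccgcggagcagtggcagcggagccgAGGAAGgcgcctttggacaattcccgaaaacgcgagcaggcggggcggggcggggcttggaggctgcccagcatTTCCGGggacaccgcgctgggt
Counted from the RefSeq start, AGGAAG lay at bases -49 to -44 for Robo4 and began at -203 and -180 for Plxnd1. The Robo4 match and most of the Efna1 bases printed thus lie inside the gene as annotated. CCGGAA lay at -14 to -9 for Sema3d. For Sema4b AGGAAG lay at -96 to -91, and CCGGAA lay on the opposite strand at -22 to -17. The Efna1 window printed holds neither form, though it holds the shorter GGAA core, while another window of the same gene holds AGGAAG. The genes printed are examples. Of other genes that fell, the window nearest the start of Sema6b held neither form and that of Flrt3 held AGGAAG.

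Among the semaphorins, 15 of 20 were tested, of which 4 were lower in the libraries labelled KO and 1 was higher. That is 33.3% called, near the 29.3% of all genes. In what follows, values per library are in the order of replicates 1 to 5 labelled KO and 1 to 4 in Control. Sema3f, a secreted class 3 ligand that acts through neuropilin 2, is encoded at chr9:107681500-107710475 on the minus strand. It had 220.3, 318.7, 192.0, 301.1 and 262.7 CPM in the libraries labelled KO, against 630.5, 622.6, 790.4 and 755.8 CPM in Control. The highest library labelled KO lay far below the lowest Control, and the fall was -1.43 ± 0.16 (log2 fold change ± SE, adjusted p = 0.000233, edgeR's quasi-likelihood test). Sema3b, its neighbour at chr9:107597674-107609229, had only 0.806 ± 0.649 CPM labelled KO and 0.381 ± 0.323 CPM in Control and did not pass.

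Sema3d, another secreted class 3 ligand that acts on endothelial cells in mouse heart and lung veins, is encoded at chr5:12383385-12588948 on the plus strand. It had 2.96, 1.57, 1.22, 5.82 and 4.44 CPM in the libraries labelled KO, against 39.4, 46.4, 34.4 and 15.1 CPM in Control. Every library labelled KO lay below every Control, of which replicate 4 was the lowest. By the fit it was 10.6-fold lower (log2 fold change -3.41 ± 0.49, adjusted p = 0.00097).

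Sema4a, a transmembrane ligand first known from immune cells and able to bind plexin D1, was low in both groups, at 1.94 ± 0.565 CPM labelled KO and 6.43 ± 2.08 CPM in Control. Its log2 fold change was -1.73 ± 0.29 (adjusted p = 0.0021) with no overlap. Sema6b, a transmembrane ligand of A-type plexins, had 94.5, 125.9, 111.6, 109.0 and 110.3 CPM in the libraries labelled KO, against 202.7, 193.0, 171.4 and 158.9 CPM in Control. These values form a pair of separate bands with little spread in either, and the log2 fold change was -0.72 ± 0.10 (adjusted p = 0.000764). Sema4b, a transmembrane ligand of the same class as Sema4a, went the other way. It had 221.2, 170.0, 125.1, 268.4 and 185.2 CPM in the libraries labelled KO, against 116.6, 97.8, 119.0 and 106.2 CPM in Control. Replicate 3 labelled KO came close to the highest Control without overlap, and the log2 fold change was 0.82 ± 0.19 (adjusted p = 0.0111).

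The other well-expressed semaphorins did not pass. Sema6a, a transmembrane ligand of plexins A2 and A4, averaged 344.8 ± 101.1 CPM labelled KO and 517.5 ± 39.6 CPM in Control, and its adjusted p was 0.0575, with a call in 6 of the 20 alternatives tried. Sema6d, a ligand of plexin A1, averaged 386.9 ± 113.0 CPM labelled KO and 499.5 ± 134.0 CPM in Control (adjusted p = 0.258). Sema4c, a ligand of plexin B2, had 197.2, 313.3, 338.7, 116.8 and 190.4 CPM in the libraries labelled KO, against 201.6, 228.2, 158.7 and 193.9 CPM in Control. Its replicates 2 and 3 labelled KO were the highest of all 9 libraries and replicate 4 the lowest (adjusted p = 0.554).

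Sema3g, a secreted ligand known from arterial endothelium, had the widest spread of the set. It had 0.953, 71.7, 19.7, 0.921 and 0.401 CPM in the libraries labelled KO, against 1.05, 0.562, 0.441 and 13.3 CPM in Control. Replicates 2 and 3 labelled KO and Control replicate 4 were high, and all others were near 1 CPM. The log2 fold change of 2.28 ± 1.61 did not pass (adjusted p = 0.317), and it was -2.34 without those KO replicates. Of 6 other genes known from arteries, chosen after values were seen, Gja5 and Dll4 were lower in the libraries labelled KO (log2 fold change -4.37 and -0.77). Gja4 (-0.71), Hey1 (-1.78), Bmx (1.14) and Sox17 (0.45) did not pass. Within Control, replicate 4 was the highest for all 6 but Gja4, for which it was the lowest (132.9 CPM). Gja5 had 15.2 CPM there. Within the libraries labelled KO, replicate 2 was the highest for Bmx (6.36 CPM), Gja5 (0.864 CPM) and Hey1 (3.49 CPM). It was the lowest for Sox17 (254.7 CPM) and between the others for Gja4 and Dll4. Replicate 3 labelled KO was the lowest of its group for Gja4 (62.1 CPM) and Gja5 (0.0520 CPM) and the highest for Dll4 (300.5 CPM). The part of other vessel types in these values was not tested. The remaining 6 semaphorins tested, Sema3a, Sema3b, Sema4d, Sema4g, Sema6c and Sema7a, did not pass. All were low, as were Sema3c, Sema3e, Sema4f, Sema5a and Sema5b, which were not tested. Sema5a had 49 counts over the libraries labelled KO and 6 over Control, too few for the filter.

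All 9 plexins were tested, of which 2 were lower in the libraries labelled KO, 2 were higher and 5 did not pass. The share called was 44.4%, against 29.3% of all genes. Plxnd1, the semaphorin receptor best known for vessel patterning, is encoded at chr6:115954811-115995005 on the minus strand. It had 1545, 1640, 2136, 1138 and 1510 CPM in the libraries labelled KO, against 2764, 2832, 3138 and 3513 CPM in Control. No library labelled KO reached the lowest Control, and the log2 fold change was -0.94 ± 0.18 (adjusted p = 0.0036). Plxna2, a receptor for Sema6a and, with neuropilins, for class 3 ligands, had 201.2, 153.4, 144.9, 218.0 and 265.0 CPM in the libraries labelled KO, against 252.1, 281.6, 319.2 and 284.6 CPM in Control. Replicate 5 labelled KO reached into the Control range. Its log2 fold change was -0.53 ± 0.17 (adjusted p = 0.0420), and the call was lost, with adjusted p between 0.0515 and 0.111, when any library but replicate 5 labelled KO was left out.

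Plxna1, a receptor for Sema6d and for class 3 ligands, was higher, with 147.5, 106.7, 112.9, 131.6 and 149.7 CPM in the libraries labelled KO, against 67.5, 76.2, 81.3 and 106.0 CPM in Control. The groups met at their edges, where replicate 2 labelled KO lay just above Control replicate 4, and the log2 fold change was 0.65 ± 0.15 (adjusted p = 0.0101). Plxnb1, the receptor of Sema4d, had 6.85, 15.1, 21.4, 2.80 and 3.54 CPM in the libraries labelled KO, against 2.16, 2.65, 1.32 and 3.54 CPM in Control. Replicates 1, 2 and 3 labelled KO lay above every Control, and replicates 4 and 5 within the Control range. By the fit it was 4.11-fold higher (log2 fold change 2.04 ± 0.63, adjusted p = 0.0357), and 1.82-fold higher with adjusted p = 0.134 without replicates 2 and 3. The call was also lost without replicate 2 (0.0662) or 3 (0.0683) labelled KO alone, or without any 1 Control (0.0510 to 0.0959).

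The plexins that did not pass included the second most abundant one. Plxnc1, the receptor of Sema7a, had 823.0, 544.5, 467.0, 1633 and 1688 CPM in the libraries labelled KO, against 1542, 1432, 1438 and 1118 CPM in Control. Replicates 4 and 5 labelled KO lay above every Control and replicates 1 to 3 below every Control. The log2 fold change was -0.42 ± 0.38 (adjusted p = 0.443). Plxnb2, the receptor of Sema4c, averaged 330.9 ± 77.8 CPM labelled KO and 270.8 ± 13.4 CPM in Control (adjusted p = 0.218), and it passed without replicates 2 and 3 labelled KO (log2 fold change 0.52, adjusted p = 0.00204). Plxna4, a receptor for class 6 and, with neuropilin 1, class 3 ligands, had 100.4, 49.8, 46.7, 45.9 and 52.1 CPM in the libraries labelled KO, against 58.3, 63.6, 56.6 and 67.0 CPM in Control. Replicate 1 labelled KO was the highest of all libraries and the other 4 lay below every Control. The adjusted p was 0.873 with that library and 0.0161 without it, at a log2 fold change of -0.33. Plxna3 and Plxnb3 averaged 1.23 to 1.86 CPM and did not pass.

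Of the 11 semaphorin and netrin co-receptors listed, 7 were tested and 1 passed (14.3%, against 29.3% of all genes). Nrp2, the co-receptor of Sema3f, averaged 521.8 ± 105.7 CPM in the libraries labelled KO and 969.1 ± 121.8 CPM in Control (log2 fold change -0.89 ± 0.16, adjusted p = 0.00273), with no overlap. Nrp1, the co-receptor of Sema3a and of VEGF, averaged 1091 ± 268 CPM labelled KO and 1261 ± 37.9 CPM in Control and did not pass (adjusted p = 0.413). Draxin, a netrin antagonist, and Ptk7 did not pass either (adjusted p = 0.103 and 0.112). Among 27 tested genes that act below plexins, 5 were lower and 4 higher (33.3% called, near the 29.3% of all genes), and the median log2 fold change was -0.02. Fyn, a Src-family kinase that relays semaphorin signals, averaged 298.4 ± 29.8 CPM labelled KO and 687.2 ± 14.1 CPM in Control (-1.20 ± 0.09, adjusted p = 3.57e-05). Mras and Rras, small GTPases of the kind on which the plexin GAP domain acts, were lower, by log2 fold changes of -1.72 and -0.57. Mical2, an actin-oxidising enzyme related to the plexin partner Mical1, was higher at 198.0 ± 44.9 CPM labelled KO and 95.3 ± 19.8 CPM in Control (1.05 ± 0.19, adjusted p = 0.00274).

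**Figure D2:**
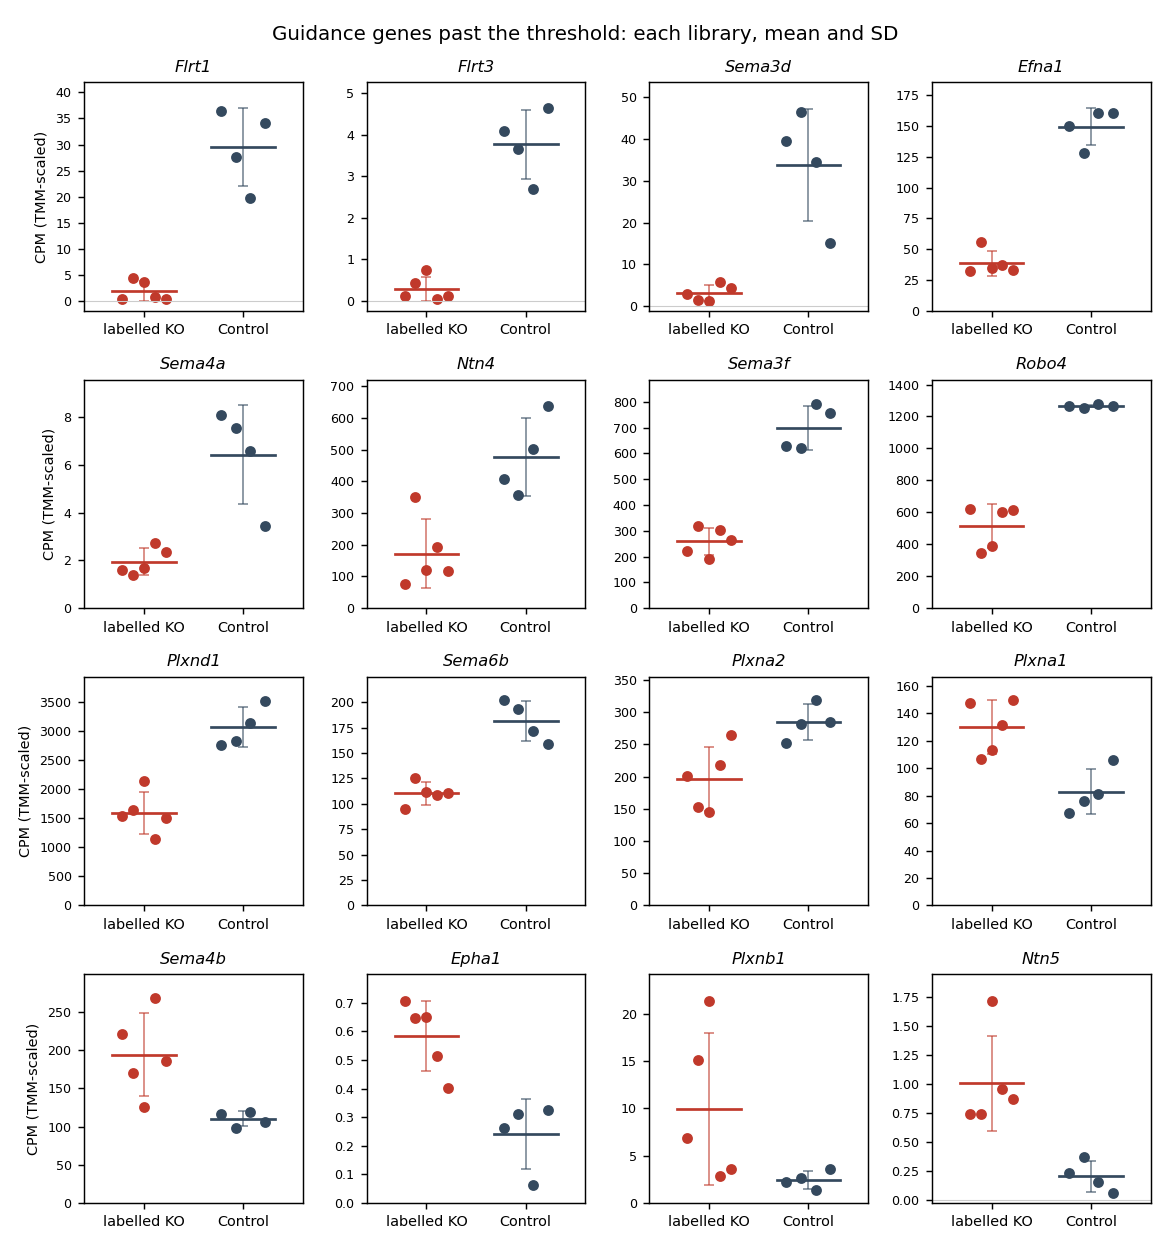
CPM in each library of the 16 guidance genes that passed an adjusted p of 0.05, with libraries labelled KO in red (n = 5, left) and Control in blue (n = 4, right); lines give the mean and bars the SD, and each panel has its own axis. The panels run from the strongest fall (Flrt1) to the strongest rise (Ntn5), and the groups overlap only for Plxna2 and Plxnb1.

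Of the 5 netrins 4 were tested, of which 1 was lower in the libraries labelled KO and 1 higher (50% called, against 29.3% of all genes). Ntn4, a netrin of vascular basement membranes that also binds laminins, is encoded at chr10:93640681-93747207 on the plus strand. It had 75.6, 351.6, 120.6, 191.5 and 118.2 CPM in the libraries labelled KO, against 407.3, 358.1, 502.9 and 638.9 CPM in Control. Replicate 2 labelled KO came within a few CPM of the lowest Control, and the other 4 lay far below. The log2 fold change was -1.48 ± 0.40 (adjusted p = 0.0221), and the call was lost without Control replicate 3 (0.0517) or 4 (0.0591). Ntn5, a little studied netrin, was very low and higher in the libraries labelled KO, with 163 counts over their 5 libraries and 26 over the 4 Controls (log2 fold change 2.28 ± 0.49, adjusted p = 0.00663). It shares 519 of its 2216 exon bases with Sec1 on the opposite strand, which was higher as well (2.45 on the log2 scale), and the sources used here do not give the strand setting of the counts.

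Ntn1, the classic secreted netrin, averaged 23.1 ± 10.3 CPM labelled KO and 31.1 ± 13.6 CPM in Control and did not pass (adjusted p = 0.469). Ntng2, a netrin anchored to the membrane by a lipid, had 100.9, 54.5, 51.8, 189.3 and 216.2 CPM in the libraries labelled KO, against 94.7, 113.7, 112.1 and 71.0 CPM in Control. As for Plxnc1, replicates 4 and 5 labelled KO lay above every Control and replicates 2 and 3 below (adjusted p = 0.611). Ntng1 had 4 counts in all. The receptors Unc5a and Unc5b, which read netrins as repulsive and, for Unc5b, are known from endothelial tip cells, did not pass. Unc5a averaged 93.1 ± 20.7 CPM labelled KO and 95.2 ± 5.24 CPM in Control, and Unc5b averaged 15.2 ± 3.58 CPM labelled KO and 19.1 ± 2.21 CPM in Control. Unc5c and Unc5d had 0 counts in all 9 libraries.

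Of 11 tested genes that act below netrin receptors, 2 were higher, 2 lower and 7 did not pass (36.4% called, against 29.3% of all genes). Dapk1, a death-associated kinase that binds Unc5b, averaged 143.6 ± 53.0 CPM in the libraries labelled KO and 25.7 ± 2.44 CPM in Control (2.48 ± 0.29, adjusted p = 0.00032). Ablim1, an actin-binding protein whose Caenorhabditis elegans relative acts in netrin guidance, averaged 31.6 ± 14.7 CPM labelled KO and 5.68 ± 1.75 CPM in Control (2.47 ± 0.38, adjusted p = 0.00132). The focal adhesion kinase Ptk2 was lower (-0.41 ± 0.09, adjusted p = 0.00956). The exchange factor Trio was lower at -0.26 ± 0.09 (adjusted p = 0.0450), and that call was lost when any 1 library other than replicate 3 labelled KO or Control replicate 1 was left out.

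Robo4, the Robo receptor of endothelial cells, is encoded at chr9:37401897-37415115 on the plus strand. It had 621.4, 344.6, 386.5, 603.1 and 616.0 CPM in the libraries labelled KO, against 1263, 1255, 1277 and 1265 CPM in Control. The Controls lay within a very narrow band, while replicates 2 and 3 labelled KO lay below the other 3, and the groups were far apart. The log2 fold change was -1.30 ± 0.19 (adjusted p = 0.000995), and -1.04 (2.05-fold lower) without replicates 2 and 3. Robo1, the Slit receptor also found in neurons, averaged 113.5 ± 16.0 CPM labelled KO and 85.6 ± 17.3 CPM in Control and did not pass (0.41 ± 0.15, adjusted p = 0.0618). It passed without replicate 3 labelled KO (0.0439) and without Control replicate 4 (0.0230).

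The ligands of Robo receptors had few counts. Slit1, Slit2 and Slit3 had 35, 69 and 104 counts over all 9 libraries and were not tested, nor were Robo2 and Robo3 with 12 and 73 counts. Among 18 tested genes of Slit and Robo signalling, 4 were lower, 2 higher and 12 did not pass (33.3% called, near the 29.3% of all genes). The adaptor Nck1 averaged 44.7 ± 3.36 CPM in the libraries labelled KO and 88.7 ± 4.05 CPM in Control (-0.99 ± 0.07, adjusted p = 2.99e-05). Vasp, an actin polymerising factor, was higher (0.46 ± 0.11, adjusted p = 0.0109). Arhgap39, whose Drosophila relative binds Robo, was lower (-0.83 ± 0.22, adjusted p = 0.0173). The Slit-Robo GTPase-activating protein Srgap2 was lower (-0.34 ± 0.10, adjusted p = 0.0259), and its call was lost without replicate 3 labelled KO (0.0515) or without Control replicate 2, 3 or 4 (0.0583 to 0.0644).

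Of the 3 Flrt genes, all tested, 2 were lower in the libraries labelled KO and 1 did not pass. The share called was 66.7%, against 29.3% of all genes, and the 2 that fell had the largest falls of the set. Flrt1, a transmembrane protein with leucine-rich repeats and a fibronectin domain, is encoded at chr19:7092001-7105729 on the minus strand. It had 0.529, 4.54, 3.61, 0.884 and 0.367 CPM in the libraries labelled KO, against 36.4, 27.6, 19.8 and 34.1 CPM in Control. The highest library labelled KO stood well below the lowest Control, and replicates 2 and 3 stood above the other 3. By the fit it was 14.6-fold lower (log2 fold change -3.87 ± 0.67, adjusted p = 0.0025), and 49.6-fold lower without those replicates.

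Flrt3, which binds Unc5 receptors and is tied to FGF signalling, had 0.106, 0.432, 0.728, 0.0368 and 0.100 CPM in the libraries labelled KO, against 4.09, 3.65, 2.68 and 4.64 CPM in Control. In counts these were 49 over the libraries labelled KO and 484 over Control. Again replicates 2 and 3 were the highest labelled KO. By the fit it was 12.7-fold lower (-3.67 ± 0.63, adjusted p = 0.00225), 21.2-fold lower without replicate 3 and 43.7-fold lower without replicates 2 and 3. Flrt2, the third member and a ligand of Unc5 receptors, had 33.0, 27.6, 53.3, 24.5 and 61.3 CPM in the libraries labelled KO, against 13.2, 18.3, 35.4 and 14.4 CPM in Control. All 5 lay above Control replicates 1, 2 and 4, and Control replicate 3 overlapped them. The log2 fold change of 0.98 ± 0.37 did not pass (adjusted p = 0.0753), and it passed without Control replicate 3 (0.0190). By length, Flrt2 made up 92.5% of the summed Flrt level in the libraries labelled KO and 31.3% in Control, and Flrt1 made up 6.55% labelled KO and 59.5% in Control.

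Of 6 tested genes listed as partners of Flrt proteins or as relatives of such partners, 4 were lower and 1 higher (83.3% called, against 29.3% of all genes). Fgfr1, a receptor of fibroblast growth factors, averaged 503.7 ± 87.8 CPM in the libraries labelled KO and 70.9 ± 35.6 CPM in Control (2.83 ± 0.33, adjusted p = 0.000298). Fgfr3, another such receptor, averaged 27.2 ± 9.41 CPM labelled KO and 63.5 ± 22.4 CPM in Control (-1.23 ± 0.30, adjusted p = 0.0144). Adgrl4, an endothelial relative of the latrophilins, averaged 553.2 ± 114.4 CPM labelled KO and 939.6 ± 91.4 CPM in Control (-0.76 ± 0.16, adjusted p = 0.00616). The teneurin Tenm1 had 7 counts over the libraries labelled KO, all in replicate 2, and 204 counts over Control (adjusted p = 0.00404). Tenm1 is 1 of the 4 lower, and it passed the count filter through Control alone, so it had to differ in order to be tested.

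Among the ephrins and Eph receptors, 1 ligand was lower in the libraries labelled KO and 1 receptor was higher. That ligand was the only ephrin-A ligand tested. The receptor was 1 of 3 EphA receptors tested (33.3% called, near the 29.3% of all genes). Efna1, the ephrin-A ligand induced by inflammation in endothelium and read mainly by EphA2, is encoded at chr3:89271733-89281142 on the minus strand. It had 31.97, 55.7, 34.8, 36.8 and 33.0 CPM in the libraries labelled KO, against 149.9, 127.7, 160.2 and 160.3 CPM in Control. Even replicate 2 labelled KO, the highest of its group, lay far below every Control (3.89-fold lower, log2 fold change -1.96 ± 0.17, adjusted p = 5.56e-05). Its neighbours on the same strand, Efna3 at chr3:89313899-89322965 and Efna4 at chr3:89333390-89338028, had 5 and 23 counts in all and were not tested, nor were Efna2 and Efna5.

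The receptor Epha2 had 113.6, 92.9, 64.6, 92.9 and 81.4 CPM in the libraries labelled KO, against 73.9, 77.3, 67.3 and 99.5 CPM in Control. The groups overlapped over most of their range (0.16 on the log2 scale, adjusted p = 0.488). Epha1 was higher at a very low level, with 92 counts over the libraries labelled KO and 31 over Control (1.27 ± 0.42, adjusted p = 0.0451). That call was lost when any library but replicate 5 labelled KO was left out (0.0578 to 0.0945). It shares 236 of its 3928 exon bases with Zyx on the opposite strand, which averaged 427.2 ± 72.9 CPM labelled KO and 166.5 ± 9.46 CPM in Control. Epha4 averaged 0.685 ± 0.765 CPM labelled KO and 1.52 ± 0.884 CPM in Control and did not pass. The other 6 EphA receptors had at most 29 counts in all, and Epha5, Epha6 and Epha8 had 0.

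Ephrin-B ligands and EphB receptors had no member past the threshold. Efnb2, the ligand that marks arteries, had 175.4, 265.6, 348.7, 96.4 and 158.6 CPM in the libraries labelled KO, against 159.7, 142.2, 178.6 and 288.1 CPM in Control. Ephb4, its receptor and a marker of veins, had 714.9, 525.8, 355.1, 866.0 and 715.2 CPM in the libraries labelled KO, against 767.5, 717.4, 848.7 and 655.5 CPM in Control. In the libraries labelled KO the order of these 2 genes was reversed, replicate 3 being highest for Efnb2 and lowest for Ephb4 and replicate 4 lowest for Efnb2 and highest for Ephb4. Their adjusted p was 0.8292 and 0.473. Efnb1 averaged 280.3 ± 57.9 CPM labelled KO and 300.9 ± 63.7 CPM in Control (adjusted p = 0.722). Efnb3 and Ephb6 averaged 0.853 to 1.40 CPM in either group, and Ephb1, Ephb2 and Ephb3 were not tested.

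Of 23 tested genes of Eph and ephrin signalling, 9 were lower, 4 higher and 10 did not pass (56.5% called, against 29.3% of all genes), with a median log2 fold change of -0.23. Arhgef15, an endothelial protein of the ephexin family, averaged 377.3 ± 34.5 CPM in the libraries labelled KO and 849.2 ± 28.9 CPM in Control (-1.17 ± 0.09, adjusted p = 4.10e-05). Anks1, an adaptor that binds Eph receptors, was lower (-0.74 ± 0.08, adjusted p = 0.000237), and the adaptor Grb10 was higher (1.28 ± 0.15, adjusted p = 0.000264). Over all the partner lists, 91 of 109 genes were tested, of which 13 were higher (14.3%, against 14.5% of all genes) and 24 lower (26.4%, against 14.8%), with a median log2 fold change of -0.09. The lists were written with earlier results of these libraries known, so their counts are a description.

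**Figure D3:**
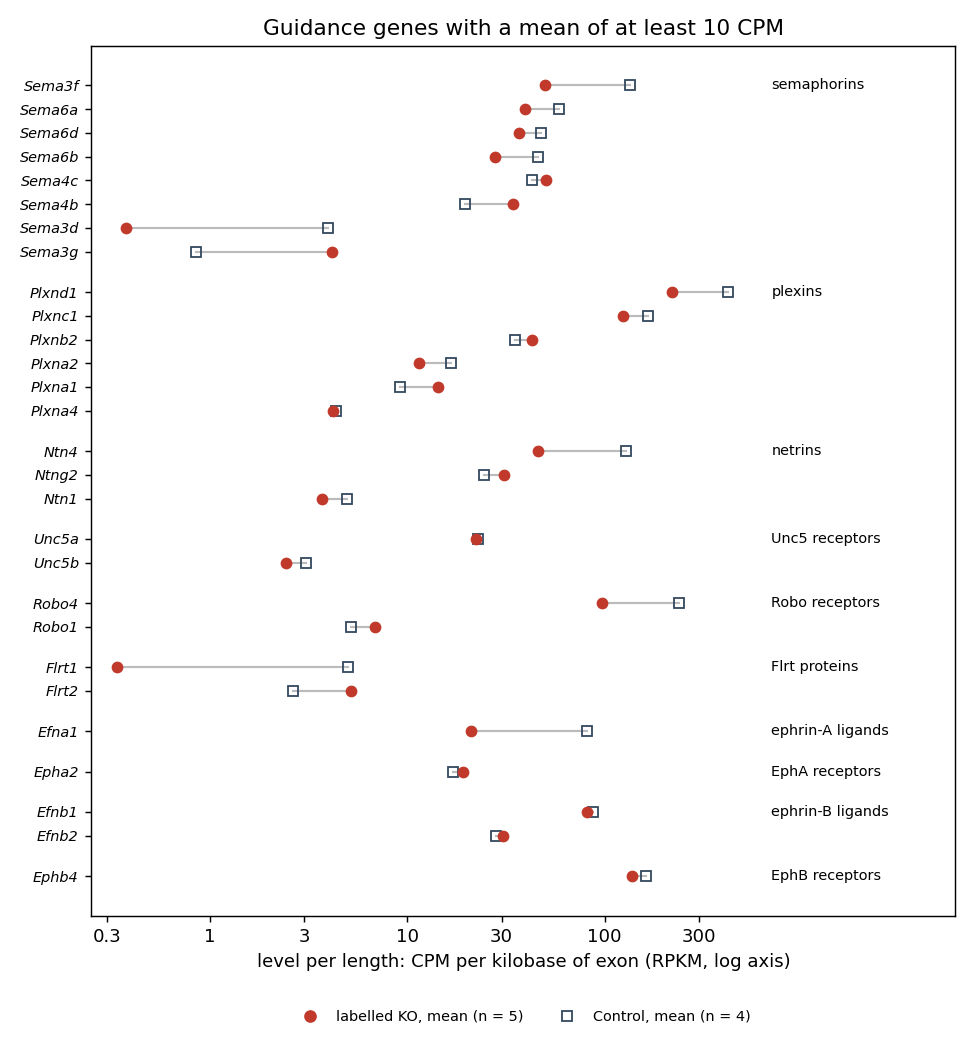
Mean level per length (CPM per kilobase of exon, RPKM, on a log axis) of the 28 guidance genes with a mean of at least 10 CPM, by family, with filled circles for libraries labelled KO (n = 5) and open squares for Control (n = 4). Plxnd1 is the highest in both groups, at 218 RPKM labelled KO and 419 RPKM in Control, and the widest gaps are those of Flrt1 and Sema3d.

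Levels per length allow genes to be ranked within a library. Plxnd1 stood first, at 218.3 RPKM in the libraries labelled KO and 419.3 RPKM in Control. Ephb4 was next in the libraries labelled KO (137 RPKM, and 161 in Control), followed by Plxnc1 (124 RPKM, and 166 in Control) and Robo4 (97.0 RPKM, and 239 in Control). Robo4 was second in Control. These 3 neighbours labelled KO did not lie apart by more than their spread, which was widest for Plxnc1. Summed over families, plexins reached 416.1 ± 54.6 RPKM labelled KO and 650.7 ± 30.3 RPKM in Control, and semaphorins 244.3 ± 19.0 RPKM labelled KO and 355.7 ± 21.5 RPKM in Control. Robo receptors summed to 103.9 ± 26.4 RPKM labelled KO and 243.8 ± 2.43 RPKM in Control, and netrins to 80.7 ± 30.7 RPKM labelled KO and 157.0 ± 28.3 RPKM in Control. Within each of these 4 sums, no library labelled KO reached the lowest Control.

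The shares of single genes in these sums differed between the groups, and they were not tested. Sema3f made up 20.4% of the semaphorin level in the libraries labelled KO and 37.8% in Control, and Ntn4 made up 55.5% of the netrin level labelled KO and 80.4% in Control. Plxnd1 made up 53.5% of the plexin level labelled KO and 64.3% in Control. Some families had 1 dominant member in both groups. Robo4 was 93.1% of the Robo level labelled KO and 97.9% in Control, Epha2 was 98.7% of the EphA level labelled KO and 98.5% in Control, and Ephb4 was 99.7% of the EphB level in each. Ephrin-B ligands summed to 112.0 ± 12.9 RPKM labelled KO and 115.6 ± 26.9 RPKM in Control, and ephrin-A ligands to 21.1 ± 5.43 RPKM labelled KO and 81.9 ± 8.39 RPKM in Control.

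The spread between libraries was described without a test. The median SD of log2 CPM over the 44 genes was 0.42 labelled KO and 0.29 in Control, against 0.23 labelled KO and 0.16 in Control over all genes tested. The SD was wider labelled KO for 32 of the 44 (72.7%, against 68.5% of all genes). For 28 of the 44 (63.6%, against 37.0% of all genes), replicates 2 and 3 labelled KO both lay on the same side of the other 3. They lay above for 16, among them Sema3g, Sema4c, Sema6d, Plxnb1, Efnb2, Flrt1 and Flrt3. They lay below for 12, among them Plxnc1, Ephb4, Ntng2, Robo4, Sema6a and Sema4b. In replicates 2 and 3 the summed sinusoidal markers were 9284 and 7625 CPM, against 11290 to 13462 CPM in the other 3 labelled KO. Of the markers summed, Stab1, Stab2, Gpr182 and Fcgr2b were lowest in these replicates, Clec4g was not lowest in both, and Lyve1 was highest. Lyve1 had 937.3 and 259.7 CPM in replicates 2 and 3, against 14.5, 29.5 and 28.1 CPM in the others labelled KO. The part of these markers in the spread was not tested. Without replicates 2 and 3, 18 of the 44 guidance genes tested passed, and so did 29.3% of all genes tested. Of these 18, 13 were among the 16, and Epha1, Plxna2 and Plxnb1 did not pass.

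**Figure D4:**
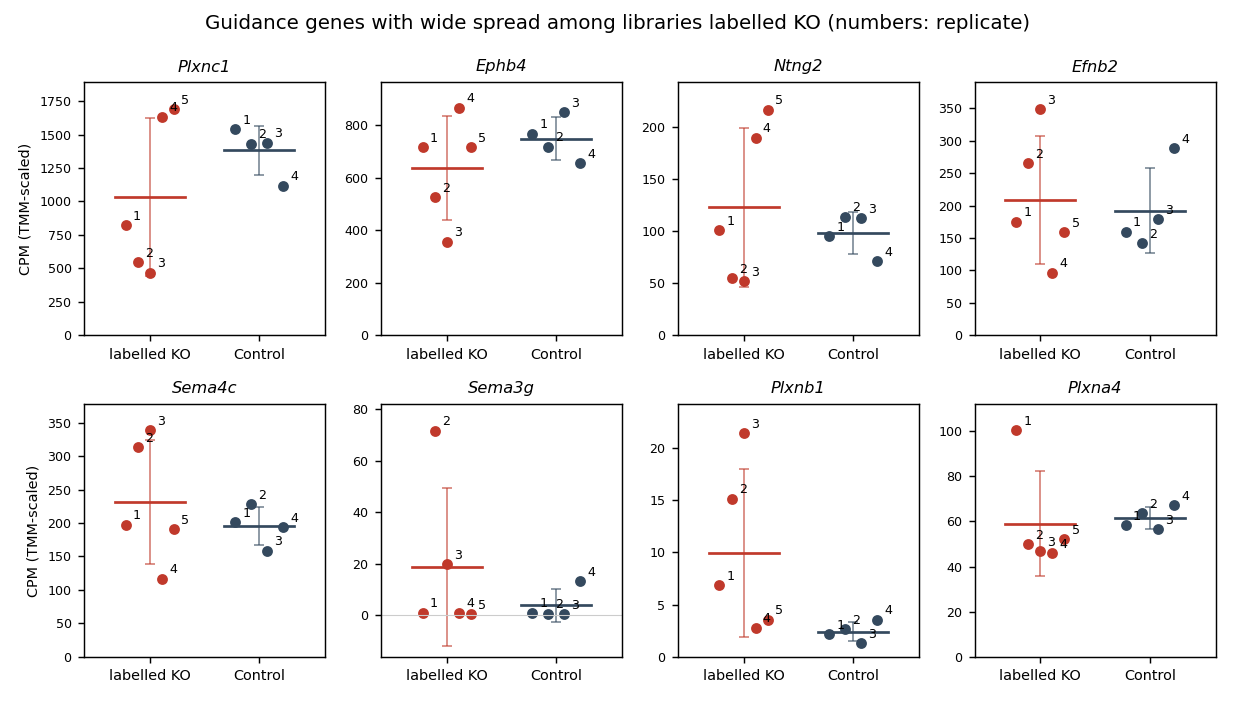
CPM in each library, numbered by replicate, of 8 guidance genes with a wide spread among the libraries labelled KO (red, n = 5, left; Control in blue, n = 4, right), with mean and SD; each panel has its own axis. Replicates 2 and 3 labelled KO lie together at the low end for Plxnc1, Ephb4 and Ntng2 and at the high end for Efnb2, Sema4c, Sema3g and Plxnb1, and replicate 1 stands alone for Plxna4.

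Markers of other cells moved with the groups in part. Of 5 lymphatic endothelium markers 3 were tested, of which 1 was lower, 1 higher and 1 did not pass. Ccl21a was at 0 counts, and the sum was 1450 to 1735 CPM labelled KO and 3122 to 3853 CPM in Control. Of 7 neuron and glia markers 2 were tested, Tubb3 was higher, Elavl4 and Snap25 were at 0 counts, and the sum was 10.8 to 20.5 CPM in libraries labelled KO and 2.84 to 5.01 CPM in Control. Of 5 platelet markers, all tested, 4 were higher (sum 66.9 to 137.7 CPM labelled KO and 26.5 to 40.1 CPM in Control). Of 5 neutrophil markers 4 were tested and 3 were higher (sum 7.95 to 25.2 CPM labelled KO and 1.17 to 6.34 CPM in Control). Retnlg is 1 of these 3. It passed the count filter through the libraries labelled KO alone, so it had to differ in order to be tested. Of all genes tested, 14.5% were higher. All 8 hepatocyte markers had negative log2 fold changes, with a median of -1.32, and 1 of them, Tat, was lower (sum 18.2 to 204.8 CPM labelled KO and 159.1 to 364.3 CPM in Control). Replicate 2 labelled KO had the highest sums of all 9 libraries for the Kupffer (583.2 CPM), stellate (19.996 CPM), cholangiocyte (17.0 CPM), mesothelium (11.05 CPM) and erythroid (52.8 CPM) lists, of which no marker passed. The part of these cells in the guidance genes was not tested. Among the sinusoidal markers beside which Robo4, Plxnd1 and Ntn4 were lower, Clec4g averaged 455.4 ± 217.0 CPM labelled KO and 3225 ± 375 CPM in Control and Stab2 averaged 4447 ± 1292 CPM labelled KO and 5412 ± 138 CPM in Control, and that part was not tested either.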

How the data were processed

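Polyadenylated RNA was sequenced from 9 samples of sorted liver endothelial cells, and the values deposited by the authors are raw counts, 1 row per Ensembl identifier and 1 column per sample. FastQC 0.11.5, STAR 2.7.6a and GRCm38 are named per the submitters' processing notes. The sources used here do not give the counting program or its strand setting. Libraries were made with an unstranded or a stranded kit, per the labels' protocols, and which library had which kit is not stated.

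Groups and replicate numbers came from the sample titles, and 0 columns were left unused. By Xist and Ddx3y counts, 3 samples labelled KO were female and 2 male, and in Control 1 was female and 3 male. Sex is thus partly confounded with group, and the sex term tried below rests on 1 female Control. No label ties each sample to its own animal, so p-values measure the spread between these samples, which may be technical. No pair of libraries was alike enough to be 1 library deposited again (chi-square per degree of freedom at least 20.3). The replicate numbers were not taken as pairs of samples (see the closing section).

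Symbols, coordinates and exon lengths came from the GENCODE annotation of GRCm38, which gave a symbol for 52403 of 52636 identifiers. The annotation held 71 symbols that meet the rule, of which 70 had a row; Ntn3 is not analysed here. Genes were filtered with filterByExpr (minimum count 10, minimum total 15), scaled by TMM and fitted by robust glmQLFit, and KO was tested over Control by glmQLFTest without covariates (edgeR 4.0.16, R 4.3.3). P-values were adjusted by the Benjamini-Hochberg method over all 14583 genes tested, and the threshold was 0.05. The standard error is the size of the log2 fold change over the square root of F. CPM are scaled by TMM, and RPKM divide them by the union of exons. The method was tested on simulated data.

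Named were the targeted genes, each guidance gene past the threshold, each other tested one with a mean of at least 10 CPM, and up to 4 genes with the smallest p of each partner list. The genes and lists were chosen with earlier results of these data known. Genes named otherwise were chosen after their values were seen, or account for the set. Alternatives were 3 scalings, 2 filters, DESeq2 1.42.0, limma-voom (limma 3.58.1), glmTreat, a replicate block, a sex term, and leaving out libraries.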

Additional observations from a re-analysis of the deposited data

Results flagged for a closer look

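In 116 groups of 4 or 5 libraries, over the 58 genes named, 9 single libraries stood apart from the rest of their group by Dixon's ratio, where chance flags about 1 in 20 groups (about 6 here). Of the guidance genes, Efna1 had 55.7 CPM in replicate 2 labelled KO, against 31.97 to 36.8 CPM in the others of its group. Ntn5 had 1.71 CPM in replicate 3 labelled KO, against 0.741 to 0.957 CPM in the others. Plxna4 had 100.4 CPM in replicate 1 labelled KO, against 45.9 to 52.1 CPM in the others. Sema3g stood apart in both groups, with 71.7 CPM in replicate 2 labelled KO (others 0.401 to 19.7 CPM) and 13.3 CPM in Control replicate 4 (others 0.441 to 1.05 CPM).

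Among the partner genes, Mras had 11.05 CPM in replicate 2 labelled KO, against 4.21 to 5.63 CPM in the others. Tenm1 had 0.216 CPM in the same library and 0 in the others labelled KO. Trio had 100.7 CPM in replicate 4 labelled KO, against 119.7 to 126.8 CPM in the others. Ptk7 had 5.23 CPM in Control replicate 3, against 6.45 to 6.59 CPM in the others.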

How the results depend on the processing

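Of the 16 guidance genes past the threshold, 11 stayed past it under every alternative in which they were tested other than glmTreat, which tests against a log2 fold change of 1; Flrt3, Ntn5 and Sema4a among them were not tested with at least 5 CPM in 4 samples. The others were Epha1, Ntn4, Plxna2, Plxnb1 and Sema4b. In the main test 5 guidance genes and 14.5% of all genes were higher. With no count filter these were 3 and 6.61%, with glmTreat 0 and 1.98%, and with the replicate block 3 and 8.93%. With at least 5 CPM in 4 samples they were 2 and 16.9%, and Epha1, Ntn5 and Plxnb1 were not tested there. Lower in the main test were 11 guidance genes and 14.8% of all genes, and with glmTreat 4 (Efna1, Flrt1, Flrt3 and Sema3d) and 1.46%. Against 13 partner genes higher and 24 lower, glmTreat left 4 and 1. Leaving out 1 library gave 3 to 5 guidance genes higher and 9 to 12 lower, and 9 to 17 partner genes higher and 17 to 23 lower. Of all genes tested, 10.1% to 13.8% were then higher and 10.7% to 14.2% lower, against 14.5% and 14.8% in the main test. The count of 3 came without replicate 2 labelled KO and without Control replicate 1 or 2. Of the 44 guidance genes tested and of all genes, DESeq2 called 19 and 34.5%, limma-voom 15 and 29.2%, and the sex term 17 and 26.3%. With library totals only, the median of all genes lay at 0.08.

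The replicate block used the 8 samples with a number in both groups. The deviations of same-numbered samples from their group means had no common direction. Over genes, r was 0.32, -0.05, -0.01 and -0.35 for replicates 1 to 4, and the numbers were not taken as pairs. The block called 14 of the 44 guidance genes tested and 18.4% of all genes. Of these 14, 12 were among the 16. Ntn4, Sema4b, Epha1 and Plxnb1 were lost with the block, at adjusted p = 0.0513, 0.0515, 0.0962 and 0.116.

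Direction changed for genes that did not pass. Plxna4 had a log2 fold change of 0.00356 with library totals only, 0.0638 with the sex term and 0.12 without replicates 2 and 3 labelled KO. Unc5a had 0.0323 with library totals only and 0.11 without those replicates, and Ntng2 had -0.19 with the replicate block. Without those replicates Efnb2 had -0.41, Ephb4 0.0431, Plxnc1 0.00715, Sema3g -2.34, Sema4c -0.21 and Nrp1 0.0346. Leaving out 1 library gave -0.33 to 0.0220 for Plxna4, -0.16 to 0.0594 for Unc5a, -0.22 to 0.0197 for Efnb1 and -0.14 to 0.38 for Efnb2. The cause was not tested. With the length of the longest transcript, 9 of 22 family sums moved by more than 1 SD. At this depth, genes with a few counts per library, Slits and most EphA receptors among them, could not be compared.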
